A study of Mus musculus with 8 samples.

Results

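Wdr5 chromatin immunoprecipitation (ChIP) was set against RNA polymerase II (Pol II) ChIP, with 2 libraries for each target. The 4 libraries were chosen by their titles from 8 in the series, whose other libraries were 2 of PHF20 ChIP and 2 of a control. All 8 came from mouse cells of C57BL/6 background. No treatment, genotype or time is given for any of them. The series title and design name embryonic stem cells, whereas every sample is labelled as neural progenitors made from such cells, and the files used here do not settle which applies. The growth protocol describes embryonic stem cells and induced pluripotent stem cells on irradiated feeder cells, and the labels do not say whether feeder cells were removed. Chromatin was cross-linked with formaldehyde and sheared before precipitation with an antibody from Bethyl against Wdr5 or from Abcam against Pol II. The kind of control (input chromatin or IgG) was not stated in the labels. Nothing in the labels says that the replicates were separate cultures, so p-values here reflect the scatter of these libraries alone, which may be technical.

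Wdr5 is a WD-repeat protein found at the core of the MLL/SET1 enzymes, which methylate histone H3 where active genes begin. It is also a subunit of the NSL acetyltransferase complex, to which PHF20 belongs. Pol II transcribes protein-coding genes, gathers just downstream of their start sites and spreads along their bodies. Both are therefore known from active promoters, and a direct contrast shows places where the reads for Wdr5 and for Pol II part from each other.

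Reads that shared a chromosome and a start were counted once. The Wdr5 libraries then held 3687023 and 2586510 reads on the autosomes and X in replicates 1 and 2, and the Pol II libraries held 2809044 and 2326449. The share of distinct starts among all reads was 79.7% and 77.8% for Wdr5 and 76.04% and 65.6% for Pol II. The mean 1 kb window held 1.39 and 0.969 reads in the Wdr5 libraries and 1.05 and 0.871 in the Pol II libraries. At this depth local differences of several fold could be missed. Over 20 kb bins, control replicate 1 correlated with the other 7 at a Spearman rho of 0.04 to 0.16, and neither control entered the main tests. The Wdr5 and Pol II libraries correlated with each other at 0.77 to 0.84, a range that also held the correlation of 0.79 between the Wdr5 replicates and of 0.81 between the Pol II replicates. Bins within a library are not independent replicates, so these values carry no test.

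In windows of 1 kb, 4 sites were higher in Wdr5 ChIP than in Pol II ChIP and none was higher in Pol II ChIP. They lay on chromosomes 2, 7 and 15, and both Wdr5 libraries held at least 12 reads in each, against 0 to 3 in the Pol II libraries. The calls were 0.00446% of the 89673 windows whose mean over the 4 libraries reached 3 reads (limma-trend, Benjamini-Hochberg adjusted p under 0.05), and the percentage called higher in Pol II was 0. An unadjusted p under 0.05 was reached by 2089 windows in limma-trend. The voom variant of limma called 0 windows in either direction, with 2524 at an unadjusted p under 0.05. Both counts were below a share of 0.05 of the tested windows, the share that no difference would give on average. No window was called either when the low-count filter was dropped or when it was raised to a mean of 6 reads. When any 1 of the 4 libraries was left out, none of the 4 windows passed, in fits that keep 1 residual degree of freedom. Their log2 fold changes stayed positive in those fits, at 2.80 to 3.24 and 2.63 to 2.83 for the chromosome 2 windows described first and second below, 2.08 to 3.07 for chromosome 15 and 1.72 to 3.04 for chromosome 7. The number called then was 25 without Wdr5 replicate 1, 10 without Wdr5 replicate 2, and 0 without either Pol II library.

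The window with the largest difference was on chromosome 2 from 158187001 to 158188000 (mm9). Wdr5 replicates 1 and 2 held 15 and 17 reads, and both Pol II libraries held 0. The groups did not overlap, and PHF20 replicate 1 held 2 reads while the other PHF20 library and both controls held 0. As CPM, the reads divided by library size and scaled as usual, the Wdr5 level was 5.32 ± 1.77 (mean ± SD, n = 2). The pooled Wdr5 reads were at least 8.73-fold higher when a floor of 3 reads is set for the Pol II pair. The exact 95% interval of the pooled ratio, which covers counting error only, begins lower, at 6.70. This window and the other called windows below were chosen on these same reads. Their ratios and intervals therefore describe the reads and are no further test. The log2 fold change in the fit, made with a prior count of 2, was 3.07 (SE 0.53; adjusted p = 0.000843 in limma-trend).

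The second site on chromosome 2, from 26766001 to 26767000 (mm9), had a similar pattern. Wdr5 replicates held 13 and 12 reads and the Pol II libraries none, while PHF20 and control libraries held 1 or 2 each. Its Wdr5 level was 4.08 ± 0.79 CPM (mean ± SD, n = 2; adjusted p = 0.0208 in limma-trend). By the same floor the pooled Wdr5 reads were at least 6.82-fold higher, and the exact 95% interval begins at 5.15.

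On chromosome 15 from 76734001 to 76735000 (mm9), the Wdr5 libraries held 18 and 14 reads and the Pol II libraries 2 and 0. The libraries of the targets did not overlap, and the pooled CPM ratio was 13.1 (exact 95% interval 3.34 to 113). The interval is wide because the denominator is only 2 reads. The log2 fold change was 2.55 (SE 0.50; adjusted p = 0.0190 in limma-trend).

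On chromosome 7 from 52973001 to 52974000 (mm9), the Wdr5 libraries held 15 and 16 reads against 3 and 0 for Pol II, a pooled ratio of 8.46 (exact 95% interval 2.64 to 43.2). This was the weakest of the calls, with an adjusted p of 0.0454 in limma-trend. It no longer passed when library size was replaced by size factors from 10 kb windows (adjusted p = 0.129) or when the PHF20 libraries were added to the fit (adjusted p = 0.1195). All 4 windows kept a higher level in Wdr5 in the other settings listed in the closing section.

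Of the 6 next windows on the Wdr5 side, none passed the test in the 4 libraries, with adjusted p between 0.0552 and 0.328 in limma-trend. They were on chromosomes 11, 4, 8, 18 and 6, and the Wdr5 libraries held 8 to 19 reads in them against 0 to 4 for Pol II. The first, on chromosome 11 from 68715001 to 68716000, held 13 and 16 reads for Wdr5 and 0 and 2 for Pol II. On chromosome 4 there were 2, from 130219001 to 130220000 with 12 reads in each Wdr5 library, and from 116828001 to 116829000 with 10 and 19. Each Pol II library held at most 1 read in both of these. The window on chromosome 8 from 125626001 to 125627000 held 14 and 15 reads for Wdr5 and 4 and 0 for Pol II. A window on chromosome 18 held 8 and 14 against 1 and 0, and one on chromosome 6 from 85402001 to 85403000 held 12 and 13 against 1 and 1. Such lists were limited to windows whose groups did not overlap, a condition that 14.9% of all tested windows met with Wdr5 higher and 15.5% with Pol II higher.

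The Wdr5 reads at these 10 sites were gathered in short stretches. In each, the 500 bp with the most Wdr5 starts held 47.7% to 73.3% of all Wdr5 starts in the surrounding 3 kb. In the chromosome 2 site with the largest difference, that stretch ran from 158186829 to 158187328 and so crossed the window border, with 14 and 19 starts in the Wdr5 libraries and 1 and 0 in the Pol II libraries. No single start in the 10 stretches carried more than 3 reads in any Wdr5 library. These stretches were placed on the Wdr5 reads, and their density in Wdr5 is a description.

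**Figure D1:**
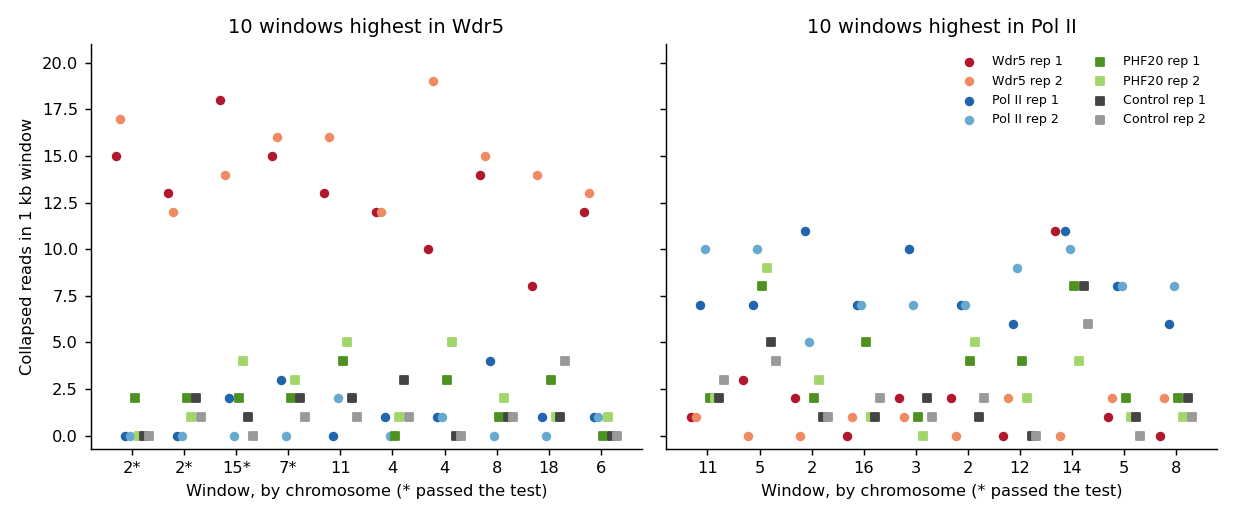
Reads in each of the 8 libraries (points, reads after collapsing by start) in the 10 named windows of 1 kb for Wdr5 (left) and for Pol II (right). They are labelled by chromosome, with an asterisk where limma-trend passed. Named windows are called windows by fold, then those with the smallest p among windows whose groups did not overlap. On the left both Wdr5 libraries hold 8 to 19 reads and the Pol II libraries 0 to 4; on the right the Pol II libraries hold 5 to 11 reads, no window passed, and in some windows PHF20 or Wdr5 reads are as high.

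On the Pol II side the best windows were weaker, and the smallest adjusted p was 0.982 (limma-trend). The 10 windows held 5 to 11 reads in the Pol II libraries. The first, on chromosome 11 from 116490001 to 116491000, held 7 and 10 reads for Pol II and 1 in each Wdr5 library. The pooled ratio there was 10.4 in favour of Pol II (exact 95% interval 2.46 to 92.7). This window was chosen for its small p on these same reads, so the interval describes the reads and is no test. On chromosome 5 from 14971001 to 14972000, 7 and 10 Pol II reads stood beside 3 and 0 for Wdr5, but the PHF20 libraries held 8 and 9. On chromosome 14 from 6187001 to 6188000, Wdr5 replicate 1 held 11 reads, as many as Pol II replicate 1, and Wdr5 replicate 2 held 0. Only the difference in depth kept the groups of that window from overlapping in CPM. Without Wdr5 replicate 1, 15 windows were called higher in Pol II and 10 higher in Wdr5, and without Wdr5 replicate 2 the numbers were 6 and 4. Each of these fits left a single Wdr5 library, which was assumed to vary like the Pol II pair.

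Counting windows by a rule of size gave more sites on either side, and more for Wdr5. Both libraries of a target had to reach 6 reads and 3 times the CPM of each library of the other, with 0.3 CPM added to each value. The minimum was first set at 8 reads and was lowered to 6 once it was seen that no Pol II window reached 8. By this rule, which used the same 4 libraries, 72 windows were high in Wdr5 (0.00273% of 2638841) and 29 were high in Pol II (0.0011%). The minimum of 6 reads alone was met in both libraries by 1957 windows for Wdr5 and 1409 for Pol II, without regard to depth. The 72 lay on all 20 chromosomes and the 29 on 15. Each Wdr5 window held 6 to 19 reads per Wdr5 library, whereas no Pol II window exceeded 10. At a minimum of 8 reads, 22 windows remained by the rule for Wdr5 and 0 for Pol II. The smallest fold inside the rule was 3.01 for Wdr5 and 3.31 for Pol II, and the largest outside it was 2.98 and 2.93.

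The direction of this count depended on how repeated reads were treated. With every deposited read counted, 148 windows were high in Wdr5 and 395 in Pol II. Pol II replicate 2 had the lowest share of distinct starts of the 4 libraries, 65.6%. The part of repeated reads in the larger Pol II count was not tested. With the same minimum of 2.58 CPM for all libraries, collapsed reads gave 18 windows for Wdr5 and 3 for Pol II.

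**Figure D2:**
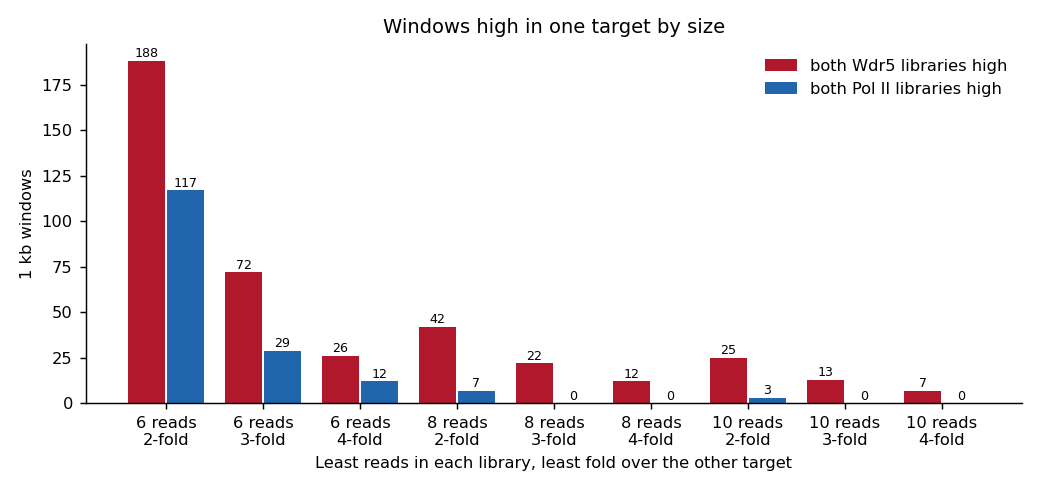
Number of 1 kb windows (bars, starting at 0) in which both Wdr5 or both Pol II libraries reached the read minimum and the fold over the other target, for 9 settings. Wdr5 windows outnumber Pol II windows in all 9, from 188 against 117 at 6 reads and 2-fold to 7 against 0 at 10 reads and 4-fold. The 9 settings are cuts of the same counts and not separate results, and a minimum in reads is easier to reach in deeper libraries.

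The PHF20 and control libraries, which the rule did not use, stood between 0.80 and 1.21 times their surroundings at the 72 windows high in Wdr5. Relative to its own mean over the 51 kb around each window, PHF20 replicate 1 was at 1.21 (95% exact Poisson interval 1.02 to 1.42) and replicate 2 at 1.00 (0.84 to 1.19). Control replicates 1 and 2 were at 0.80 (0.66 to 0.97) and 1.03 (0.84 to 1.25). PHF20 replicate 1 was thus above its surroundings there and control replicate 1 below. At the 29 windows high in Pol II, PHF20 was at 1.39 (1.08 to 1.77) and 0.90 (0.65 to 1.20), and control at 1.08 (0.81 to 1.41) and 1.55 (1.18 to 1.99). Control replicate 2 and PHF20 replicate 1 were thus above their surroundings at the Pol II windows. These intervals cover counting error only.

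Windows were then picked in some libraries and read in others, and the result depended on how they were picked. In the first design, tried before the other, a window was picked where 1 Wdr5 library held 10 reads or more and 3 times the CPM of 1 Pol II library, and the remaining Wdr5 and Pol II libraries were compared there, each relative to its surroundings. Windows picked in Wdr5 replicate 1 against Pol II replicate 1 gave a ratio of Wdr5 to Pol II of 1.63 (exact 95% interval 1.41 to 1.88), and those picked in Wdr5 replicate 2 against Pol II replicate 2 gave 1.32 (1.20 to 1.46). With the numbers crossed, the ratio was 1.10 (1.002 to 1.21) for Wdr5 replicate 1 against Pol II replicate 2, and 0.97 (0.90 to 1.04) for Wdr5 replicate 2 against Pol II replicate 1. These intervals and those of the picks below cover counting error in single libraries only, not the spread between replicates, and the 4 ratios ranged from 0.97 to 1.63. At 8 reads the 4 ratios were 1.13, 1.05, 0.97 and 0.94 in the same order, and at 6 reads 1.01, 0.93, 0.97 and 0.91. Windows picked in Pol II by this design at 10 reads gave same-numbered ratios of Pol II to Wdr5 of 0.99 (0.84 to 1.16) and 1.02 (0.90 to 1.14). Those picked in Pol II replicate 2 against Wdr5 replicate 1 gave 0.73 (0.64 to 0.82). Wdr5 replicate 2 stood there at 2.72 times its surroundings and Pol II replicate 1 at 1.97 times. The ratio for Pol II replicate 1 against Wdr5 replicate 2 was 0.92 (0.83 to 1.01).

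The second design was adopted after those values were seen, and it gave larger ratios for Wdr5. A window was picked where a Wdr5 or Pol II library held 10 reads or more and 3 times the CPM of every PHF20 and control library. The second library of the target and both libraries of the other target took no part in the choice. The minimum of 10 reads was taken after values at 6, 8 and 10 had been seen, so the ratios below are those of the setting, among the 3, in which Wdr5 stood out most.

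The 56 windows picked in Wdr5 replicate 1 were dense in Wdr5 replicate 2 and less so in Pol II. Wdr5 replicate 2 held 356 reads there, 3.81 times its surroundings (95% exact Poisson interval 3.43 to 4.23). Pol II replicates 1 and 2 held 136 and 92 reads, 1.41 (1.18 to 1.66) and 1.22 (0.98 to 1.5) times theirs. In 31 of the 56 windows Wdr5 replicate 2 was at least 3 times above its surroundings, and in 7 each of the Pol II libraries was. The Wdr5 density exceeded that of both Pol II libraries together by a ratio of 2.88 (exact 95% interval 2.43 to 3.41), and by 2.47 (2.07 to 2.95) without the 4 called windows. It was 1.56 (1.41 to 1.72) at 8 reads and 1.198 (1.12 to 1.28) at 6 reads.

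The 188 windows picked in Wdr5 replicate 2 gave the same order with a smaller gap. Wdr5 replicate 1 held 1.84 times its surroundings (1.71 to 1.98), and Pol II replicates 1 and 2 held 1.11 (1.00 to 1.22) and 1.20 (1.08 to 1.33). The ratio of Wdr5 to Pol II was 1.61 (1.45 to 1.78). With a minimum of 8 reads it was 1.05 (1.001 to 1.11). With a minimum of 6 reads, which picked 4001 windows, it was 0.95 (0.92 to 0.98), so the order turned.

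Windows picked in Pol II showed no such separation. The 49 picked in Pol II replicate 1 held 1.5 times the surroundings in Pol II replicate 2 (1.22 to 1.82), and 1.35 (1.13 to 1.61) and 1.36 (1.12 to 1.63) in the Wdr5 libraries. The ratio of Pol II to Wdr5 was 1.11 (0.87 to 1.40). For the 20 picked in Pol II replicate 2, Pol II replicate 1 stood at 1.11 (0.79 to 1.51) and the Wdr5 libraries at 1.21 (0.90 to 1.59) and 1.34 (1.00 to 1.76). That ratio was 0.87 (0.58 to 1.27). By counting error alone the intervals reach a Pol II excess of 1.40-fold in the first set and 1.27-fold in the second. They leave out the spread between replicates, so they set no upper bound on such an excess.

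**Figure D3:**
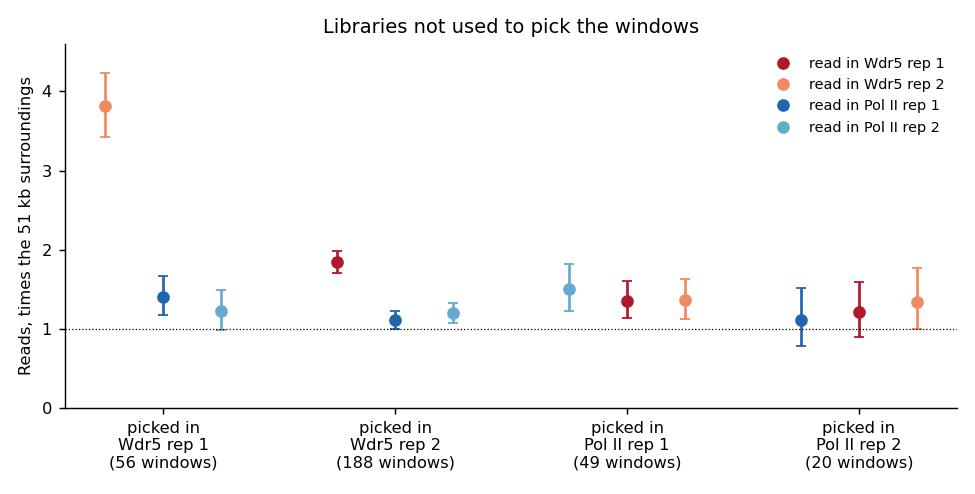
Reads in libraries that took no part in the choice of windows, as a multiple of the same library's mean over the surrounding 51 kb (points, with 95% exact Poisson intervals as bars), for windows picked in each of the 4 libraries. Wdr5 replicate 2 reaches 3.81 at windows picked in Wdr5 replicate 1, and Wdr5 replicate 1 reaches 1.84 at windows picked in Wdr5 replicate 2. All Pol II values lie between 1.11 and 1.5. At windows picked in Pol II the Wdr5 libraries lie within that range, at 1.21 to 1.36.

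**Figure D4:**
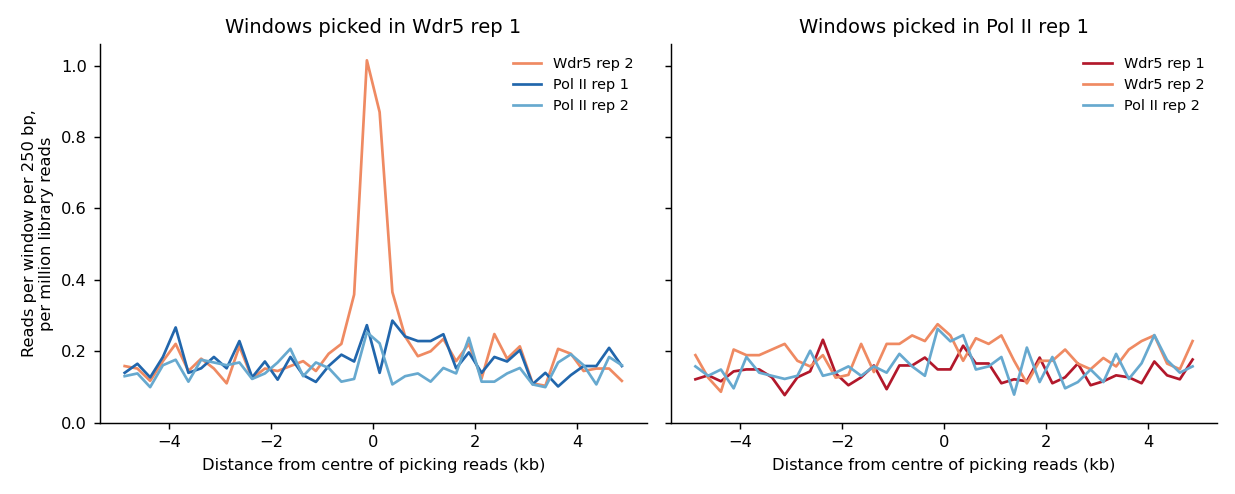
Mean reads per window in bins of 250 bp, as CPM, within 5 kb of the median read of the picking library, in the 3 libraries that did not pick. Around windows picked in Wdr5 replicate 1 (left), Wdr5 replicate 2 has by far the largest peak. Its density within 500 bp of the centre is 4.07 times that at 2 to 5 kb, against 1.34 and 1.22 times for Pol II replicates 1 and 2. Around windows picked in Pol II replicate 1 (right) the lines stay between 1.28 and 1.46 times by the same measure.

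Around the windows picked in Wdr5 replicate 1, the excess in Wdr5 replicate 2 was narrow. Within 500 bp of the centre its density was 4.07 times that at 2 to 5 kb, and between 500 and 1000 bp it was 1.31 times. The Pol II libraries were at 1.34 and 1.22 within 500 bp and at 1.26 and 0.93 from 500 to 1000 bp. At windows picked in Pol II replicate 1, Pol II replicate 2 was at 1.46 within 500 bp, and both Wdr5 libraries were at 1.28.

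The picks of the Wdr5 libraries overlapped, and those of the Pol II libraries did not. Of the windows picked in Wdr5 replicate 1, 14 were also picked in Wdr5 replicate 2, or 25% of the first list and 7.45% of the second. The Pol II lists, of 49 and 20 windows, shared 0 windows with each other. They were shorter than the Wdr5 lists of 56 and 188, so the 2 counts of shared windows are not on an equal footing. Between targets, 1 window was shared, by Wdr5 replicate 2 and Pol II replicate 1.

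The 14 shared windows, chosen without Pol II reads, lay on 12 chromosomes and included the 4 called windows. The Wdr5 libraries held 10 to 18 reads in each of them, Pol II replicate 1 held 0 to 5 and Pol II replicate 2 held 0 to 3. In all, Pol II replicate 1 held 31 reads, 1.11 times its surroundings (0.76 to 1.58), and Pol II replicate 2 held 14, 0.62 times (0.34 to 1.04). Pol II at these 14 sites was therefore not above its surroundings beyond counting error, but the reads are few. At the larger sets of 56 and 188 windows the Pol II libraries stood at 1.11 to 1.41 times theirs. PHF20 and control, which had to be low in the choice, held 12 to 26 reads per library, 0.53 to 0.90 times their surroundings.

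Some of the 14 were outside the named windows and are given here because they were picked in both Wdr5 libraries. On chromosome 16 from 33056001 to 33057000, the Wdr5 libraries held 16 and 11 reads and the Pol II libraries 1 and 2. On chromosome 17 from 34092001 to 34093000 they held 15 and 14, against 5 and 2. On chromosome 12 from 29320001 to 29321000 the reads were 15 and 12, against 3 and 2. On chromosome 10 from 79755001 to 79756000 they were 10 and 18, against 2 and 3. In each of these the lower Wdr5 library exceeded the higher Pol II library.

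Moving the window borders, a setting added after the data were seen, changed which sites passed. With 1 kb windows shifted by 500 bp, 5 windows were higher in Wdr5 and none in Pol II (limma-trend). Of these, 2 overlapped the calls above. The other 3 were on chromosome 17 from 34255501 to 34256500, with 14 and 18 Wdr5 reads and 0 and 1 Pol II reads (adjusted p = 0.00493), on chromosome 16 from 33056501 to 33057500 (adjusted p = 0.0330), and on chromosome 14 from 67690501 to 67691500 (adjusted p = 0.0360). The chromosome 16 site held 15 and 12 reads against 1 and 0, and the chromosome 14 site 9 and 15 against 0 and 0. All calls with windows of 500 bp and 2 kb, 3 and 2 in number, were also higher in Wdr5.

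At 5 kb no window was called in either direction, so the percentage called was 0 among 398795 windows for both (limma-trend). In limma-trend 13843 had an unadjusted p under 0.05, again less than a share of 0.05 of the windows. The voom variant of limma also called 0. Some windows named at this width held sites already described: the one on chromosome 2 from 158185001 to 158190000 had 26 and 32 Wdr5 reads and 6 and 4 Pol II reads. The window on chromosome 17 from 34255001 to 34260000 had 21 and 28 against 2 and 6. On the Pol II side, the first window was on chromosome 9 from 30620001 to 30625000, with 13 reads in each Pol II library and 5 and 0 in Wdr5, but 12 and 10 in control and 7 and 6 in PHF20. The other 9 Pol II windows held 9 to 16 Pol II reads, and 0 to 8 in the Wdr5 libraries. The 5 kb count varied when a library was left out. Without Wdr5 replicate 1, 19 windows were called, 11 of them higher in Pol II, and without Wdr5 replicate 2, 0 were called. Without Pol II replicate 1, 24 were called, all higher in Wdr5, and without Pol II replicate 2, 1 was called. Each of these fits has a target with a single library, which was assumed to vary like the pair of the other target.

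At broad scale the Wdr5 replicates differed more from each other than the Pol II replicates did. Over 25653 bins of 100 kb, the log2 difference of Wdr5 replicate 1 from replicate 2 had an SD of 0.50 and that of the Pol II replicates 0.27. The difference of the Wdr5 mean from the Pol II mean had an SD of 0.17, which cannot be set against the other values because averaging libraries lowers it. No bin of 20 kb or 100 kb was called, and limma-trend gave an unadjusted p under 0.05 for 2099 of 127832 and 21 of 25653 bins. Both counts were below a share of 0.05 of the bins. The spread between the Wdr5 replicates enters the residual of this test, so the lack of calls does not show that the targets are alike at this scale. The Wdr5 minus Pol II difference of replicate 1 and that of replicate 2 correlated at -0.41 over the 100 kb bins. Bins share their libraries, so this value is a description.

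The Wdr5 libraries lay on either side of Pol II at this scale. Bins were ordered by their reads in control replicate 2 and split into 10 equal classes. In the densest class, Wdr5 replicate 2 stood at 2.67 times its own median bin and Wdr5 replicate 1 at 1.5 times, with the Pol II libraries between them at 1.88 and 1.99. In the sparsest class the order was turned, with 0.39 and 0.52 for Wdr5 replicates 2 and 1 and 0.45 and 0.44 for Pol II. PHF20 replicate 2, at 1.41 in the densest class, lay close to Wdr5 replicate 1, and control replicate 1, at 0.95, was flat.

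**Figure D5:**
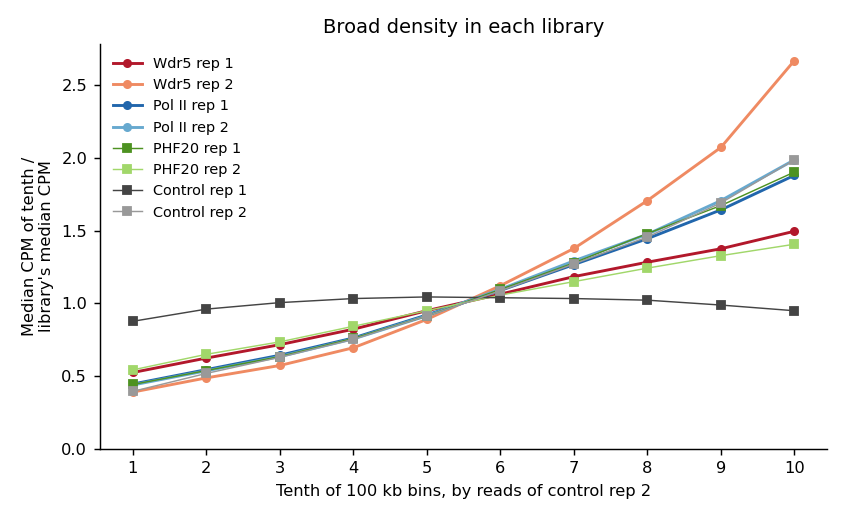
Median CPM of 100 kb bins in each of 10 classes, divided by the library's own median bin, with bins ordered by the reads of control replicate 2, whose own line is therefore set by the ordering. Wdr5 replicate 2 rises most steeply, to 2.67, Wdr5 replicate 1 reaches 1.5, and both Pol II libraries lie between them.

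On all 20 chromosomes the shares of reads of the Wdr5 and Pol II libraries overlapped, and the log2 difference of the group means lay between -0.03 and 0.02. On none of the 20 did the Wdr5 minus Pol II difference have the same sign in replicates 1 and 2. The X chromosome took 3.40% and 2.62% of the Wdr5 reads and 3.04% and 3.07% of the Pol II reads. Chromosome 11, known as gene-rich, took 5.48% and 6.22% of the Wdr5 reads and 5.80% and 5.79% of the Pol II reads. On both chromosomes the Pol II libraries lay between the Wdr5 replicates.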

How the data were processed

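Per the labels, libraries were sequenced on a MiSeq. The submitters' processing notes list Bowtie 0.12.7, CASAVA 1.6 and FastQC, and build mm9, without settings. The deposited files list 1 interval of 44 bp per read, without strand. Reads were collapsed by chromosome and start and assigned to the window holding their midpoint, 22 bp from the start; limma-trend (limma 3.58.1 in R 4.3.3, 2 residual degrees of freedom) was fitted to log2 CPM, prior count 2. Surrounding densities capped windows at 20 reads, and windows inside 32 pile-ups of 5 kb, where each library held at least 20 times its median, were left out of size rules and picks. Python 3.11.15, numpy 2.4.6, pandas 2.3.3, scipy 1.17.1 and matplotlib 3.10.9 did the rest. With 2 libraries a side the smallest exact permutation p is 0.333, and no such test is printed. The fit was tested on simulated 1 kb counts with counting error only. Of windows raised 4-fold it recovered 0% for Wdr5 and 8% for Pol II. At 8-fold it recovered 42% and 48%, and at 16-fold 90% and 86%. These are shares of all 50 windows raised for each target and fold, including those lost to the read filter. At 4-fold 46% and 44% of them passed that filter, at 8-fold 84% and 82%, and at 16-fold 100% for both.

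The rule for named windows took up to 10 per direction and width: called windows by fold, then the smallest p among windows whose groups did not overlap. The comparison, gene lists and rules were chosen with earlier results of these data known. The size rule, the picks, the shifted windows, other widths and the broad bins were added after the data were seen, and their minimums were settled with values in view: 6 reads for the size rule replaced 8, and 10 reads for the picks was chosen from 6, 8 and 10. Of the 2 designs for the picks, the one against PHF20 and control replaced the one against the other target after its values were seen; both are reported. The first design was also tried leaving out windows in which both PHF20 libraries held at least 5 or 8 reads. Promoters, gene bodies, gene lists and promoter CpG classes, which had been planned, were not analysed here: the gene and promoter tables at hand belong to GRCm38.p6, and their coordinates were not used on mm9. Windows therefore carry no gene names, and no sequences are printed.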

Additional observations from a re-analysis of the deposited data

How the results depend on the processing

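The 4 windows called higher in Wdr5 at 1 kb kept their direction in all 13 other settings of the fit but passed in only 2 to 5 of them, with log2 fold changes of 1.72 to 4.93. The number called was 1 with every deposited read counted, 0 without a low-count filter, 0 with a mean of at least 6 reads, 0 with voom weights, 1 with all 8 libraries in the fit, and 7 with a prior count of 0.5, of which 2 were higher in Pol II; 2 kb windows, added later, gave 2. With the replicate block it was 8, all higher in Wdr5; at 5 kb the block gave 0. The labels do not say that a number marks a shared culture, and deviations of same-numbered libraries correlated at 0.03 over 1 kb windows, 0.04 over 5 kb, 0.10 over 20 kb and 0.22 over 100 kb, over only 2 pairs, so whether the numbers pair the libraries was not settled. Leaving out 1 library gave 0 to 25 calls at 1 kb and 0 to 24 at 5 kb. The size rule gave, for Wdr5 and Pol II, 188 and 117 windows at 6 reads and 2-fold, 26 and 12 at 6 reads and 4-fold, 42 and 7 at 8 reads and 2-fold, 22 and 0 at 8 reads and 3-fold, 12 and 0 at 8 reads and 4-fold, 25 and 3 at 10 reads and 2-fold, 13 and 0 at 10 reads and 3-fold, 7 and 0 at 10 reads and 4-fold, 18 and 3 at an equal CPM minimum, and 148 and 395 with every deposited read counted. For windows picked in Wdr5 replicate 1 the ratio of Wdr5 to Pol II was 1.56 at 8 reads, 1.198 at 6 reads, 2.22 at 2-fold and 2.33 with every deposited read. For those picked in Wdr5 replicate 2 it was 1.05, 0.95, 1.24 and 1.16, and 2.11 at 4-fold. For Pol II replicate 1 the ratio of Pol II to Wdr5 was 0.81 at 4-fold. When windows were instead picked against 1 Pol II library at 6, 8 and 10 reads, the ratio for Wdr5 replicate 1 was 1.01, 1.13 and 1.63 against Pol II replicate 1 and 0.97, 0.97 and 1.10 against replicate 2. For Wdr5 replicate 2 it was 0.93, 1.05 and 1.32 against Pol II replicate 2 and 0.91, 0.94 and 0.97 against replicate 1, so the order turned in 6 of these 12 cases. Windows with at least 5 reads in both PHF20 libraries were also left out, with picks at 10 reads. The ratio of Wdr5 to Pol II was then 2.18 and 1.32 for Wdr5 replicate 1 and 1.45 and 1.05 for Wdr5 replicate 2. For windows picked in Pol II, the ratio of Pol II to Wdr5 was 1.13 and 0.95 for replicate 1 and 1.07 and 0.60 for replicate 2. Same-numbered choices come first in each pair. With 8 PHF20 reads as the limit, the Wdr5 ratios were 1.71, 1.17, 1.35 and 1.03 in the same order. The Pol II ratios were 0.97, 0.83, 1.06 and 0.59. The causes of these changes were not tested. The settings listed for promoters and gene bodies were not run.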
